A study of Mus musculus with 9 samples.

Results

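Voltage-gated sodium channel subunits were examined in RNA sequencing of mouse embryos at day 14.5, taken from the medial ganglionic eminence (MGE), a source of many cortical interneurons. The 8 genes were taken by symbol from the deposited table of 48526 gene identifiers: the alpha subunits Scn1a, Scn2a, Scn3a, Scn8a and Scn9a and the beta subunits Scn2b, Scn3b and Scn4b. The comparison set 5 libraries with Ctnnb1 deleted against 4 controls and asks how transcript levels differ when beta-catenin is removed from cells with an Nkx2.1-cre history. Knockouts were Nkx2.1-cre, Ctnnb1fl/fl and Rosa26-YFP, and controls were Nkx2.1-cre and Rosa26-YFP, all on C57BL/6. Control replicate 4 also carried 1 floxed allele (Ctnnb1fl/wt). Cre acts in the Nkx2.1 lineage alone, so cells of other origin in the tissue keep Ctnnb1. The labels do not say whether each library was a separate embryo, and name both collected cells and whole dissected tissue as input, so p-values hold for the spread of these libraries, some of which may be technical.

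A voltage-gated sodium channel is a large alpha subunit that forms the pore and opens on depolarization to start the action potential, with smaller beta subunits that alter its gating and its delivery to the membrane. In the brain the alpha subunits differ by age and by place on the neuron. Scn3a is known as the main embryonic form in rodents, Scn2a as a form of young axons, Scn8a as the form that predominates at mature axon initial segments and nodes, and Scn1a as a form on which inhibitory interneurons depend.

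Scn3a, Scn2a, Scn1a and Scn9a lie in 1 stretch of chromosome 2 (65457118 to 66634962, mm10). Scn8a is on chromosome 15 (100869858 to 101045938), and Scn3b (40269217 to 40291618), Scn2b (45117782 to 45130070) and Scn4b (45138395 to 45154152) are on chromosome 9. All are protein-coding in GENCODE M21. Scn9a shared 1.41% of its exon bases with an antisense gene that was at 0 in every library, and no other member shared exon bases with another gene. The alpha subunits resemble each other in sequence, so the split of reads between them is uncertain: not given in the sources used here is how reads that fit several genes were counted.

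The start sites of 4 subunits that were higher in knockout are shown for what they do and do not share. Each sequence is from RefSeq (GRCm38.p6), runs 5′ to 3′ on the gene's strand from 250 bases before the start site to 50 after it, and has its CpG dinucleotides in capitals.
Scn8a (chr15:100870395-100870694, plus strand): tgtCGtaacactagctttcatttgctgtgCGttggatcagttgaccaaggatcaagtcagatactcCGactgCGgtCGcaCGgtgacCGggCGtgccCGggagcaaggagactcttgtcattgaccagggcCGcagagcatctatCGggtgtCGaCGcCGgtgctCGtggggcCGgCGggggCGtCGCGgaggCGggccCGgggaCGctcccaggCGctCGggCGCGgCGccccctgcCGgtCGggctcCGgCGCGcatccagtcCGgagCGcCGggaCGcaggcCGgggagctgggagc
Scn1a (chr2:66440788-66441087, minus strand): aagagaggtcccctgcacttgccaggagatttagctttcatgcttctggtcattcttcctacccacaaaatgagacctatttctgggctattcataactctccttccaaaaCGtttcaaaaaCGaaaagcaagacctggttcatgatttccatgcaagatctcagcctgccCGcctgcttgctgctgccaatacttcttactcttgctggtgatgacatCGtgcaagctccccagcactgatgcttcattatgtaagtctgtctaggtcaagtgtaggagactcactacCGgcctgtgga
Scn2a, the upstream of its 2 listed starts (chr2:65620519-65620818, plus strand): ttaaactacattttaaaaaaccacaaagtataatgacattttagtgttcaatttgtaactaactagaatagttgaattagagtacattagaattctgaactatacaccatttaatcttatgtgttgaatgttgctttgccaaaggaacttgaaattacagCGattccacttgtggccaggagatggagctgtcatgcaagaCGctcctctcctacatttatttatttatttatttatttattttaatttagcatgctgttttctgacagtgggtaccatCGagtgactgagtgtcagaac
Scn2b (chr9:45117626-45117925, plus strand): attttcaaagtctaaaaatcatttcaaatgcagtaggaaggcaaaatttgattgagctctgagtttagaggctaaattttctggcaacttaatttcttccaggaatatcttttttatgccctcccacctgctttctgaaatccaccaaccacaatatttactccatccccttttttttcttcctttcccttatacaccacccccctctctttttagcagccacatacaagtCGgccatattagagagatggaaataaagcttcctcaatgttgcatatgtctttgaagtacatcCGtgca
The Scn8a start shown, the upstream of 2 listed, had 38 CpGs and 70.0% G or C, and 4.95% of the 32851 promoters in the RefSeq table had at least as many CpGs. The Scn1a start had 5 CpGs, the upstream Scn2a start 3 and the Scn2b start 2, against a median of 7 over all promoters. The downstream starts, not shown, had 12 CpGs for Scn8a and 9 for Scn2a. The 4 starts shown thus ranged from CpG-rich to CpG-poor. The table matched 6 of the 8 members, with 8 start sites; Scn3a and Scn3b were not matched. On either strand of those 8 windows, the letters TTCAGCACC of the left part of the RE1 element bound by the repressor REST were in 0 (0.371% of all promoters), the letters ATCAAAG of the TCF/LEF factors that work with beta-catenin in 0 (3.73%), and GGACAG, the right part of RE1, in 1, the downstream Scn8a start (22.2%). Only these exact letters were searched, so other forms of the same sites were not counted. The Scn2b start shown holds TTCAAAG, which differs from ATCAAAG in its first letter. Of general promoter letters, CCAAT was in 2, the Scn1a and Scn4b starts (37.4%), TATAAA in 1, the downstream Scn2a start (13.6%), and GGGCGG in 0 (35.7%).

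Libraries held 5120585 to 5569444 counted reads, and 1 read was worth 0.957 to 1.01 normalized counts. Ctnnb1 checked the labels: it had 7103, 7661, 7133, 6572 and 5477 normalized counts in knockout replicates 1 to 5, against 9841, 9960, 9967 and 9545 in control replicates 1 to 4, which is -0.54 as a log2 fold change (SE 0.0960, adjusted p = 0.000811 by limma). Over all 13780 genes tested, 34.5% differed (17.2% higher and 17.3% lower in knockout), and the median log2 fold change was -0.01. Control replicate 1 stood apart by summed markers of cortical excitatory neurons (2485 normalized counts, other controls 66.8 to 164, knockouts 145 to 509). It also stood apart by summed choroid plexus markers (2798, other controls 19.1 to 75.7, knockouts 70.2 to 407). The subunits that passed are therefore also given without control replicates 1 and 4.

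Of the 8 subunits, 6 were higher in knockout and 0 were lower by limma with Benjamini-Hochberg adjustment over all genes. Scn9a did not pass, and Scn4b was too low to be tested. Of all genes tested, 34.5% were called in either direction and 17.2% were called higher. Of the 7 subunits tested, 6 had a control mean of at least 10 and Scn9a passed the filter of 10 through its knockout values. In each of the 6, every knockout library was above every control, which was so for 14.5% of all genes tested. In tissue RNA, fewer or more cells of a type and less or more RNA per cell cannot be told apart.

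Among the alpha subunits, Scn3a changed most. It had 328, 249, 285, 395 and 351 normalized counts in knockout replicates 1 to 5, against 32.3, 88.4, 85.4 and 84.7 in control replicates 1 to 4. Knockout replicate 4 was highest and control replicate 1 was far below the other controls. The means were 322 ± 56.8 (SD, n = 5) in knockout and 72.7 ± 27.0 (SD, n = 4) in control, 4.42 times the control mean, and the log2 fold change was 2.22 with an SE of 0.282 (adjusted p = 0.000361). Only 63 of the tested genes had a larger log2 fold change. Without control replicate 1 it was 1.87, and without control replicates 1 and 4 it was 1.86.

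Scn8a rose by less than any other subunit that passed. Its counts were 418, 454, 403, 523 and 538 in knockout replicates 1 to 5, against 204, 301, 348 and 230 in control replicates 1 to 4. The lowest knockout and the highest control, control replicate 3, lay close together without overlap. The means were 467 ± 60.9 in knockout and 271 ± 65.6 in control (SD, n = 5 and 4), or 0.81 on the log2 scale (SE 0.148, adjusted p = 0.00117). Without control replicates 1 and 4 the log2 fold change was 0.52 (adjusted p = 0.0187).

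Scn1a, loss of 1 copy of which causes Dravet syndrome in people, had 65.3, 59.6, 64.2, 89.9 and 92.7 normalized counts in knockout replicates 1 to 5, against 18.2, 30.8, 24.1 and 18.9 in control replicates 1 to 4. Knockout replicates 4 and 5 were the high libraries and the groups were far apart. In log2 terms Scn1a was 1.66 higher (SE 0.208, adjusted p = 0.000102), from means of 74.3 ± 15.7 in knockout and 23.0 ± 5.82 in control (SD, n = 5 and 4). Without control replicates 1 and 4 it was 1.39 higher.

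Scn2a was low throughout. It had 22.7, 22.1, 27.1, 26.8 and 36.3 normalized counts in knockout replicates 1 to 5, against 17.2, 7.95, 7.03 and 16.9 in control replicates 1 to 4. Controls fell into a higher pair, replicates 1 and 4, and a lower pair, but all stayed below the knockouts. Scn2a rose by 1.16 on the log2 scale (SE 0.301, adjusted p = 0.00864), and by 1.70 without control replicates 1 and 4. With this few reads, counting alone gives an SD of about 5.16 in knockout, against an observed SD of 5.65, and of about 3.51 in control, against an observed SD of 5.54.

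Scn9a, best known from peripheral sensory and sympathetic neurons, had 13.8, 14.4, 7.02, 8.61 and 28.2 normalized counts in knockout replicates 1 to 5, against 17.2, 3.97, 5.02 and 6.98 in control replicates 1 to 4. Control replicate 1 was above all knockouts but replicate 5, so the groups overlapped. Its difference of 0.77 on the log2 scale (SE 0.448) had an adjusted p = 0.196, which does not show that its level was alike in the groups. Summed markers of peripheral sensory neurons were 15.8 to 93.7 normalized counts in knockout and 5.02 to 67.7 in control. Of those 5 genes, 1 was tested and it did not pass, and none was at 0 in all libraries; their part in the Scn9a values was not tested.

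The beta subunit Scn3b, which binds alpha subunits without a covalent bond, had 201, 147, 187, 250 and 328 normalized counts in knockout replicates 1 to 5, against 100.1, 76.5, 82.4 and 53.8 in control replicates 1 to 4. Knockout replicate 5 was highest, and the lowest knockout still exceeded every control. The means were 223 ± 69.7 in knockout and 78.2 ± 19.1 in control (SD, n = 5 and 4), a rise of 1.48 on the log2 scale (SE 0.225, adjusted p = 0.000533), and of 1.42 without control replicates 1 and 4.

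Scn2b, whose product is tied to alpha subunits by a disulfide bond, had 27.7, 26.9, 46.1, 47.8 and 46.3 normalized counts in knockout replicates 1 to 5, against 22.2, 15.9, 14.1 and 4.98 in control replicates 1 to 4. Knockouts split into 2 low and 3 high libraries, and the heterozygous control was lowest of all. It rose by 1.498 on the log2 scale (SE 0.352, adjusted p = 0.00516), by 1.10 without that control and by 1.28 without control replicates 1 and 4. Scn4b, which also bonds covalently and is known from mature fast-firing neurons, had 0 to 2.02 normalized counts in knockout and 0 to 2.01 in control. It was at 0 in knockout replicates 1, 3 and 4 and in control replicate 1, and a count of 0 allows up to 3 reads in such a library (counting error only).

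**Figure D1:**
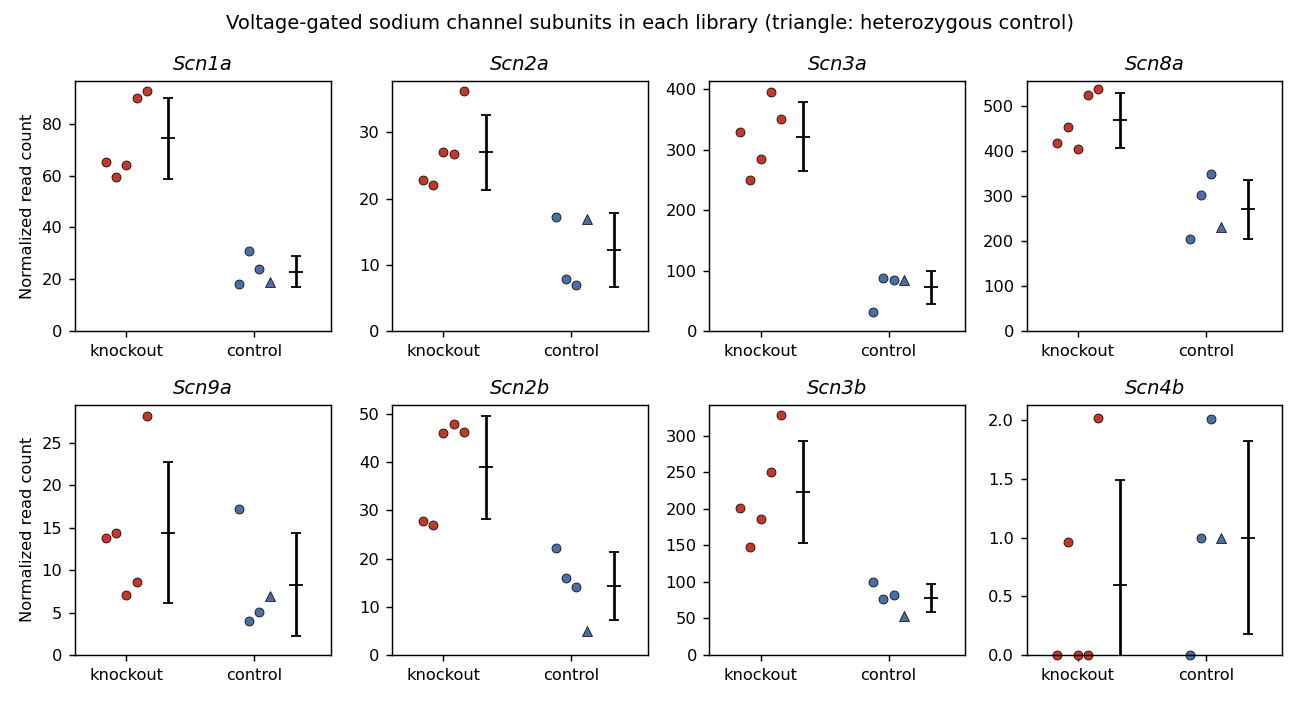
Normalized read count of each sodium channel subunit by library, with group mean and SD beside the points; knockout is red, control is blue and a triangle marks the heterozygous control. Scn3a averaged 322 in knockout and 72.7 in control, the 6 subunits that passed have no overlap between the groups, and Scn9a and Scn4b overlap.

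Knockout libraries were not ranked alike on all subunits. Knockout replicate 5, with the lowest Ctnnb1 (5477), was highest for Scn1a, Scn2a, Scn8a, Scn9a and Scn3b, while knockout replicate 4 was highest for Scn3a and Scn2b. Knockout replicate 2, with the highest Ctnnb1 of the knockouts (7661), was lowest for Scn1a, Scn2a, Scn3a, Scn2b and Scn3b but in the middle for Scn8a. The same 2 libraries were also the extremes for general neuronal transcripts. The mean log2 level of the pan-neuronal list described below was highest in knockout replicate 5 (10.59) and, among knockouts, lowest in replicate 2 (10.02). The order of these 5 libraries was not tested against Ctnnb1 or against that list.

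Levels between genes were compared per kilobase of annotated exon. In knockout Scn3b was highest at 40.7 ± 12.8 normalized counts per kb, followed by Scn8a at 29.6 ± 3.86 and Scn3a at 25.8 ± 4.56 (SD, n = 5). Scn2b (8.37 ± 2.30), Scn1a (6.67 ± 1.41), Scn2a (2.12 ± 0.444), Scn9a (1.13 ± 0.654) and Scn4b (0.119 ± 0.180) followed on the same scale. The ranges of the libraries overlapped between Scn3b and Scn8a, Scn8a and Scn3a, Scn2b and Scn1a, and Scn2a and Scn9a. Within single libraries, Scn8a was above Scn3a, Scn2b above Scn1a and Scn2a above Scn9a in 5 of 5 knockouts, and Scn3b above Scn8a in 4 of 5. In control the order began with Scn8a at 17.2 ± 4.16 and Scn3b at 14.3 ± 3.50 per kb, which overlapped, and Scn3a came after them at 5.84 ± 2.16 (SD, n = 4). The control ranges of Scn3b (9.85 to 18.3 per kb) and Scn3a (2.60 to 7.10) did not overlap, whereas Scn3a and Scn2b (3.07 ± 1.53) overlapped there. Scn2b and Scn1a (2.06 ± 0.522) overlapped as well. Lower still, Scn2a (0.964 ± 0.435) overlapped Scn9a (0.649 ± 0.474), which overlapped Scn4b (0.201 ± 0.165), while Scn1a and Scn2a were apart. Within single libraries, Scn8a was above Scn3b, Scn3a above Scn2b, Scn2b above Scn1a and Scn9a above Scn4b in 3 of 4 controls each, and Scn2a above Scn9a in 4 of 4. With the longest transcript as the length, Scn1a (8.87) came before Scn2b (8.37) in knockout.

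The 5 alpha subunits together summed to 56.9 to 75.8 normalized counts per kb in knockout and 19.9 to 32.0 in control. Scn3a made up 42.8%, 35.1%, 40.2%, 41.9% and 37.2% of that sum in knockout replicates 1 to 5, against 13.1%, 23.7%, 21.4% and 27.2% in control replicates 1 to 4. Scn8a made up 45.5% ± 2.93 in knockout and 64.1% ± 4.31 in control, and Scn1a 10.1% ± 0.701 in knockout and 7.75% ± 1.20 in control (SD, n = 5 and 4). For Scn3a, Scn8a and Scn1a the shares of the groups did not overlap. Scn2a held 3.25% ± 0.473 in knockout and 3.98% ± 2.48 in control, and Scn9a 1.70% ± 0.831 in knockout and 2.81% ± 2.69 in control, with overlap in both. These shares do not depend on the scaling between libraries. Of the 3 beta subunits, Scn3b held 82.5% ± 3.42 of the summed level per kb in knockout and 82.2% ± 4.35 in control.

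**Figure D2:**
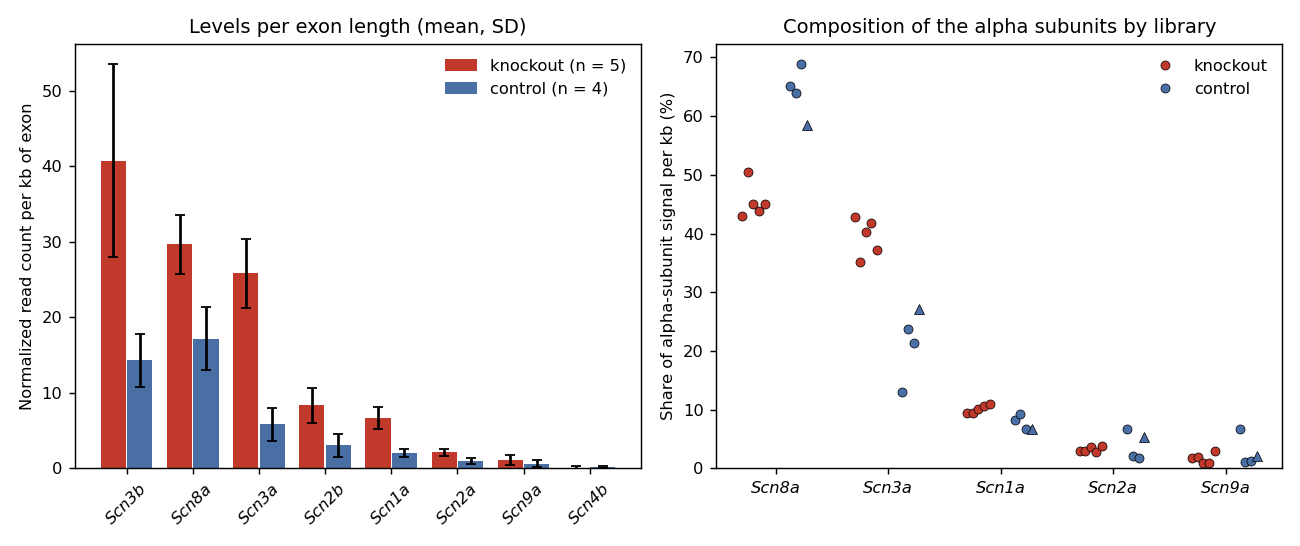
Left, mean and SD of normalized read count per kb of exon for each subunit in knockout and control; right, the percent of the summed alpha-subunit level per kb held by each alpha subunit in each library, with a triangle for the heterozygous control. The Scn8a share averages 45.5% in knockout and 64.1% in control, while that of Scn3a is 35.1% or more in every knockout and 27.2% or less in every control.

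Differences in response between subunits were tested on within-library log2 differences, over all 21 pairs of the 7 subunits measured. Scn3a minus Scn8a was -0.55 ± 0.204 in knockout and -1.96 ± 0.504 in control (SD, n = 5 and 4), a shift of 1.41 (exact two-sided permutation p = 0.00794, the smallest that 5 against 4 libraries allow; adjusted p = 0.0833). Scn1a minus Scn8a shifted by 0.85 with the same p and adjusted p. With adjustment over the 21 pairs, 0 pairs passed 0.05, and 4 did so unadjusted. A pair at the smallest p could not pass over 21 pairs unless several others were nearly as low. The count of 0 is thus set in part by the number of libraries and does not show that the subunits responded alike. With a pseudocount of 8, which itself shrinks the change of low genes (Scn2a to 0.82, but Scn3a only to 2.096), 5 pairs passed (exact permutation test, adjusted p = 0.0333 for each): Scn3a against Scn1a, Scn2a, Scn8a and Scn9a, and Scn1a against Scn8a. The shifts of Scn3a against the low genes Scn1a, Scn2a and Scn9a are in part set by that pseudocount.

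Most of the listed pan-neuronal genes were also higher. Of 18 pan-neuronal genes 14 were higher, 4 (Elavl4, Nefl, Nefm and Gap43, named after seeing their values) did not pass and 0 were lower (median log2 fold change 0.81). Of 16 MGE interneuron genes 16 were higher (median 1.20), and of 12 radial glia and progenitor genes 9 were lower and 0 higher (median -0.88). Over all genes tested, 17.2% were higher and 17.3% lower. These lists were chosen with earlier results of these data known, so their counts are not an independent result. Summed pan-neuronal markers ran from 42617 to 57694 normalized counts in knockout and 24365 to 29968 in control, with none of the 18 at 0 throughout. Summed MGE interneuron markers ran from 33518 to 41817 in knockout and 15189 to 26764 in control, and summed progenitor markers from 17841 to 27331 in knockout and 35678 to 41542 in control. Of markers of other cells, 0 of 8 cortical excitatory, 0 of 2 tested choroid plexus, 0 of 6 tested microglia and 0 of 7 endothelial and mural genes passed (limma; 0, 0, 3 and 0 at an unadjusted p under 0.05), and 1 of 4 oligodendrocyte precursor genes, Olig1, was higher. These counts were not stable: the microglia genes had a median of -0.50 and up to 4 were lower with 1 library left out (without knockout replicate 5), and Olig1 was lost without control replicate 1, 2 or 4 or knockout replicate 3 or 5. What part the balance of neuronal and progenitor transcripts has in the subunit values was not tested beyond the comparison that follows. Each subunit was therefore set against the mean log2 level of the pan-neuronal list in the same library. Relative to that list, Scn3a was -1.93 ± 0.260 in knockout and -3.15 ± 0.752 in control, a shift of 1.23, and Scn1a was -4.03 ± 0.208 in knockout and -4.70 ± 0.346 in control, a shift of 0.67 (SD, n = 5 and 4; exact two-sided permutation p = 0.00794, adjusted p = 0.0278 over 7 subunits for each). The groups did not overlap on either difference. The list mean covers genes whose log2 fold changes ran from 0.10 (Nefm) to 2.33 (Mapt). Mapt and Syt1 (2.23) rose as much as Scn3a, and Ina (1.91) rose more than Scn1a, while the rest of the list rose less than Scn1a. These genes were named after seeing their values. A shift against the mean thus does not set a subunit apart from every neuronal gene. With a pseudocount of 8 the smallest adjusted p was 0.0556, so neither subunit passed there. That is also what a subunit at the smallest p adjusts to over 7 subunits unless others are nearly as low. With 1 library left out the shifts ran from 0.85 to 1.37 for Scn3a and from 0.54 to 0.79 for Scn1a, and the test is then too small to pass with 2 subunits at its smallest p. Without control replicates 1 and 4 the shifts were 0.85 for Scn3a and 0.38 for Scn1a.

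The other 5 subunits did not pass against the pan-neuronal list. Scn8a shifted by -0.18 (adjusted p = 0.589 by the exact permutation test), Scn2a by 0.17 (0.630), Scn2b by 0.51 (0.292), Scn3b by 0.49 (0.167) and Scn9a by -0.22 (0.659). Against the MGE interneuron list in place of the pan-neuronal one, 0 of 7 subunits passed after adjustment and 2 had an unadjusted p under 0.05. These were Scn3a, which shifted by 0.65 (adjusted p = 0.0833), and Scn8a, which shifted by -0.76 (adjusted p = 0.0556), both by the exact permutation test. A subunit at the smallest p adjusts to 0.0556 over 7 subunits unless others are nearly as low, so Scn8a could not pass alone. Scn1a shifted by 0.09 against the MGE interneuron list. Both lists were chosen with earlier results of these data known.

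**Figure D3:**
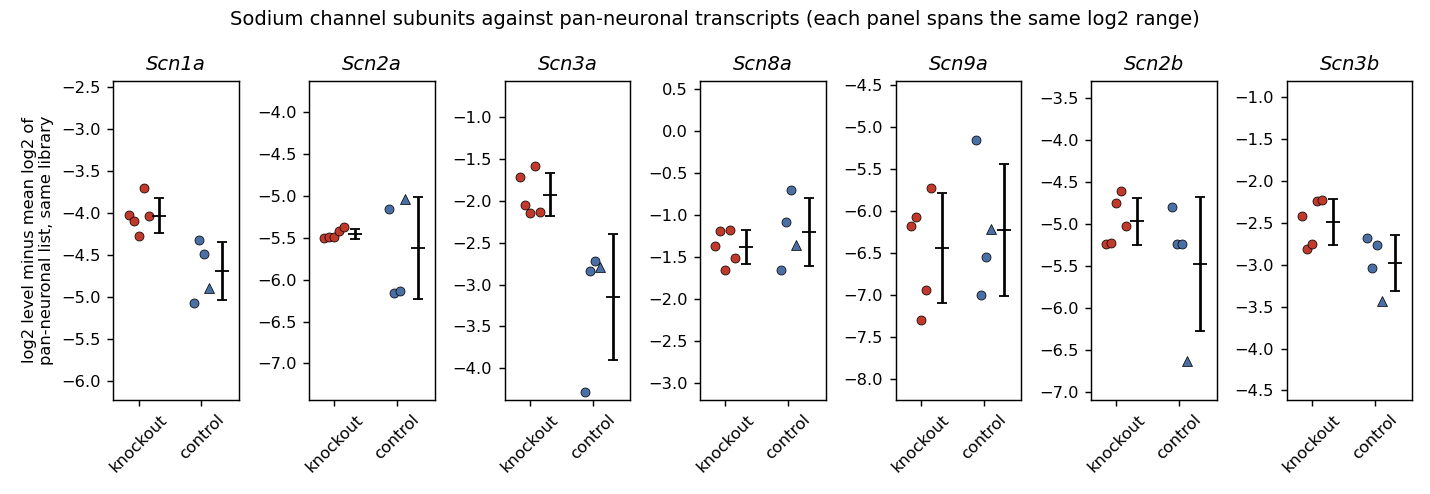
Log2(normalized count + 1) of each subunit minus the mean log2 level of 18 pan-neuronal genes of that library, with group means and SD; red is knockout, blue is control and a triangle marks the heterozygous control. Scn3a and Scn1a lie higher in all knockouts than in all controls, by 1.23 and 0.67 on average, and the other 5 panels overlap.

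The remaining sodium channel genes were mostly too low to test. Of 10 listed, 4 were tested and 3 of these were higher, beside 17.2% of all genes tested. Their median log2 fold change was 0.99 (4 were higher with no filter on low values). All 4 tested belong to the sodium leak channel, which carries a resting current and is not voltage-gated in the same way. Its pore gene Nalcn had 93.2 ± 21.4 normalized counts in knockout and 53.8 ± 12.6 in control (log2 fold change 0.79, adjusted p = 0.00726), and the associated genes Unc79 and Fam155a rose by 1.19 and 1.26 on the log2 scale. The fourth, Unc80, had 33.2 ± 4.55 normalized counts in knockout and 26.0 ± 5.47 in control, overlapped between the groups and did not pass (log2 fold change 0.35, adjusted p = 0.202).

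Of 20 genes that anchor or modulate sodium channels, 10 were higher and 2 lower, with a median log2 fold change of 0.47, beside 17.2% higher and 17.3% lower over all genes tested. Ank3, the ankyrin that gathers sodium channels at the initial segment, had 1231 ± 316 normalized counts in knockout and 345 ± 32.8 in control, a log2 fold change of 1.80 (SE 0.160). Sptbn4, the spectrin bound to it, rose by 1.88 and the adhesion molecule Nrcam by 1.06. The 2 lower genes, the ubiquitin ligase Nedd4 (-0.25) and the phosphatase Ptprz1 (-0.53), were named after seeing their values. Leaving out control replicate 2, 3 or 4, or knockout replicate 3, brought the number lower to 0, and leaving out knockout replicate 1 brought it to 1.

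Of 14 genes of REST repression and neuronal splicing, 4 were higher and 3 lower (median log2 fold change 0.07), shares near those of all genes tested. Celf4 rose by 1.27, Rbfox2 by 0.88 and Elavl2 by 0.40 on the log2 scale. Ptbp1, the splicing repressor of progenitors, had 791 ± 139 normalized counts in knockout and 1304 ± 65.8 in control (log2 fold change -0.74, adjusted p = 0.000485), and it shares 20.7% of its exon bases with other genes. The other 2 lower genes, Sin3a (-0.37) and Rcor2 (-0.27), both of REST corepressor complexes, were named after seeing their values. Rest itself, known to silence Scn2a outside neurons, had 118 ± 29.2 normalized counts in knockout and 103 ± 12.8 in control (log2 fold change 0.17, adjusted p = 0.461) and was likewise named after seeing its values.

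**Figure D4:**
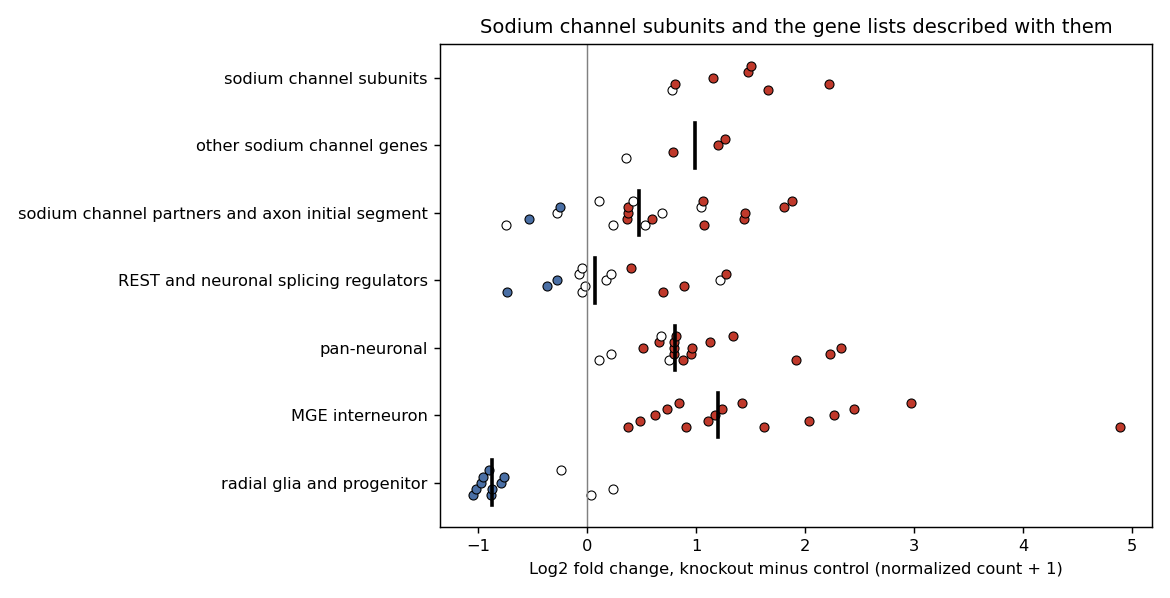
Log2 fold change, knockout minus control, of each tested gene in the subunit set and 6 gene lists; filled points have an adjusted p under 0.05, red for higher and blue for lower, and bars are list medians. The subunits run from 0.77 to 2.22, the pan-neuronal list has a median of 0.81 and the progenitor list of -0.88.

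Protein-coding genes within 500 kb of the 6 subunits that rose were read from the same fit. Of 31 such neighbours, 12 were higher and 1 lower, 38.7% higher against 17.2% of all genes tested; neighbours on 1 chromosome are not independent. On chromosome 2, Csrnp3, which lies between Scn2a and Scn1a, had 1650 ± 223 normalized counts in knockout and 571 ± 199.8 in control, a log2 fold change of 1.59. The other 2 neighbours on chromosome 2 did not pass: Ttc21b, 14.2 kb from Scn1a, with a log2 fold change of 0.06, and Cobll1 with 0.17. On chromosome 9, 7 of 14 neighbours were higher and 0 lower. Gramd1b, 1.61 kb from Scn3b, rose by 1.15 and Dscaml1, 297 kb from Scn2b, by 1.93. Mpzl3, 40.3 kb from Scn2b, did not pass (log2 fold change 0.07). On chromosome 15, 4 of 14 neighbours were higher and 1 lower, and Fignl2, 4.26 kb from Scn8a, did not pass (0.11).

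For the 3 subunits with the highest mean, the genes of most similar profile were sought by the root mean square difference of centred log2 values over the 9 libraries. For Scn8a these were Mycbp2 (0.0885), Ypel4 (0.0959) and Plxna3 (0.106), against a median of 0.534 over all genes. For Scn3a they were Camk1g (0.248), Elfn1 (0.264) and Lrrc7 (0.275), against a median of 1.22, and for Scn3b Ppfia2 (0.161), Stk32b (0.170) and Prkcq (0.184), against a median of 0.857. The other subunits were far down the order for Scn8a, but less so for Scn3a and Scn3b. This measure takes in the size of the change and counting noise as well as the shape of a profile. The ranks of the low subunits Scn2a, Scn9a and Scn2b therefore do not show unlike regulation. For Scn8a they ranked from 4631 (Scn1a) to 11837 (Scn9a), with Scn3a at 11680, farther than the median gene. For Scn3a they ranked 31 (Scn1a), 360 (Scn3b), 563 (Scn8a), 1119 (Scn2a), 1197 (Scn2b) and 7268 (Scn9a). For Scn3b they ranked 145 (Scn1a), 251 (Scn2b), 765 (Scn8a), 825 (Scn2a), 2920 (Scn9a) and 2989 (Scn3a).

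**Figure D5:**
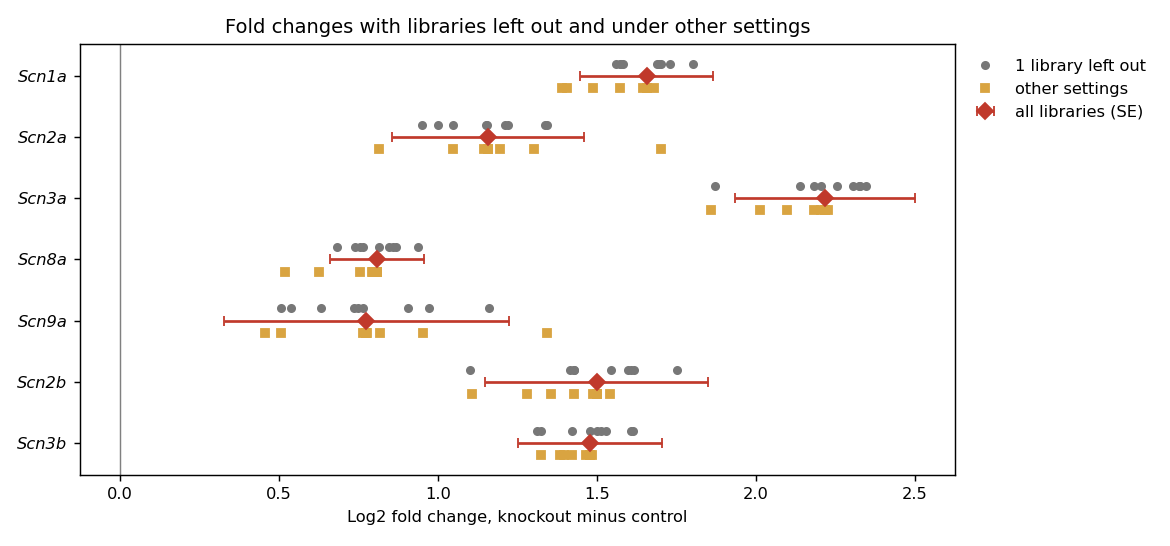
Log2 fold change of the 7 tested subunits with all libraries (red, with SE), with 1 library left out (grey) and under other settings (yellow). Every value is above 0; Scn3a ranges from 1.86 to 2.34 and Scn8a from 0.52 to 0.94.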

How the data were processed

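Read counts per gene, divided by 1 size factor per library, were deposited by the authors, which is a signal that is never negative. The tools DESeq2, HTSeq 0.9.1, TopHat2 2.1.1 and R 3.4.0 and the build mm10 are named, without roles, per the submitters' processing notes; strand setting and annotation: not given in the sources used here. Each value was a whole multiple of 1 step per library (within 0.01), which gave depth; no count model was fitted. Symbols and positions are from GENCODE M21 (48058 of 48526 identifiers matched).

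Genes with a mean of at least 10 were tested with limma 3.58.1 in R 4.3.3 (trend and robust, two-sided) after log2(normalized count + 1), adjusted over 13780 genes, threshold 0.05; this scale understates changes of low genes. The procedure was tested on simulated data with the same spread setting for every gene and few changed genes, unlike these data. Within-library differences used exact permutation tests. Members and lists were chosen with earlier results of these data known. Named genes were the members, Ctnnb1, up to 4 called genes per pathway list by smallest p, neighbours within 500 kb and the 3 most similar profiles; neighbours were described by example. Alternatives were pseudocounts, filters, scalings, fit options, a replicate block and left-out libraries. Some genes of the lists are not reported here by name.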

Additional observations from a re-analysis of the deposited data

Results flagged for a closer look

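In 36 groups of 4 or 5 libraries examined for a library far from the rest, 5 stood out; chance gives about 1 in 20. Scn3a in control replicate 1 was low, at 32.3 normalized counts, and its log2 fold change was 1.87 without that library. The same library was high for summed cortical excitatory markers (2485 normalized counts) and choroid plexus markers (2798). Control replicate 4, the heterozygous library, was high for summed radial glia and progenitor markers, at 41542. Knockout replicate 5 was high for summed microglia markers, at 347; the part of these markers in the subunit values was not tested, and the 6 calls were kept without that library.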

How the results depend on the processing

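The 6 subunits called higher were also called under each alternative that tested them, including each of 9 fits with 1 library left out; a minimum mean of 50 tested 4 and called 4. Without control replicates 1 and 4 together, 1370 genes were higher and 1108 lower overall. The replicate block, fitted over numbers 1 to 4, gave 1835 higher and 1717 lower genes and 6 subunits, and changed no call among the subunits. Libraries with the same number did not clearly deviate together (correlations -0.117, -0.0916, 0.137 and -0.0406). These values show no pairing by number, but they do not show that such libraries share nothing else. With a pseudocount of 8, 5 pairs of subunits differed. The 2 subunits that passed against the pan-neuronal list became 0 with a pseudocount of 8, 0 against the MGE interneuron list and 0 to 0 with 1 library left out. Leaving out a control makes 0.0179 the smallest exact permutation p, and leaving out a knockout 0.0286, which for 2 of 7 subunits adjusts to 0.0625 or 0.1, so that loss is set by the design and says nothing of stability. Scn2a, Scn9a and Scn2b rest on few reads, so small changes in them were not detectable at this depth.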

Other observations

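Among sodium channel genes under the filter, Scn10a, known from peripheral sensory neurons, had 5.93, 5.77, 6.02, 1.91 and 8.06 normalized counts in knockout replicates 1 to 5, against 2.02, 1.99, 1.005 and 0 in control replicates 1 to 4. The groups overlapped through knockout replicate 4. It was chosen after its values were seen and was under the filter of the reported fit. With no filter on low values it was called higher by limma (adjusted p = 0.0179), from a control mean under the 3 reads that a count of 0 allows.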
